A study of Mus musculus with 48 samples.

Results

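Zfas1, Gas5, Snhg1, Snhg6, Snhg8 and Snhg12 are noncoding transcripts whose spans hold genes of small nucleolar RNAs (snoRNAs). These 6 of the 55450 genes in the count table were followed through 48 melanoma tumors, 3 in each of 16 conditions. The 6 were chosen by name with earlier results in view, because Zfas1 was among the genes that differed most between untreated tumors of iNOS KO and WT mice at day 7. Values of that contrast are therefore given below as a description, without a test.

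C57BL/6J (WT) or iNOS KO mice arrived at 4 weeks of age, were housed for 2 weeks, and carried a subcutaneous B16-D5 tumor for 8 days before therapy. B16-D5 is 1 subclone of the B16 mouse melanoma line, and no label calls the injected cells KO, so KO refers to the host animal. Mice were left untreated or received control IgG or anti-PD-1, an antibody that blocks a checkpoint receptor of T cells, at 250 µg on day 0 and day 3. The first experiment holds 30 tumors of WT mice, untreated at 0 h, and untreated, IgG-treated or anti-PD-1-treated at 6 h, day 1 and day 3. The second holds 18 tumors of WT and KO mice under the same 3 treatments at day 7. Tumors were processed one by one, so each library is 1 animal. Condition was read from the sample titles, with which the treatment field agreed in 14 of 48 samples and the genotype field in 39.

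In a snoRNA host gene the snoRNA lies in an intron and is released as the spliced-out intron is trimmed, and it then guides chemical modification of ribosomal and other RNAs. The spliced host transcript itself usually has no long open reading frame. Several host transcripts begin with a C followed by an unbroken run of pyrimidines. This is the 5′ terminal oligopyrimidine (TOP) motif, shared with mRNAs of ribosomal proteins and translation factors. TOP transcripts are translated when the mTOR kinase is active and are held back by LARP1 when it is not. Ribosomes that engage the short reading frames of host transcripts expose them to nonsense-mediated decay, so that host transcripts are known to accumulate when translation or decay is blocked. Gas5, named for its rise in growth-arrested cells, is the classic case.

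The TOP motif gave the group its name, so an annotated start is shown for each gene. Where starts met the rule for a TOP given below, the one shared by the most transcripts is shown, and for Snhg1, where none did, the one with the longest run. Capitals mark an initial C with the C or T bases that follow it without a break. Sequences are 5′ to 3′, from the GENCODE vM21 transcripts on GRCm38.
Zfas1: CCTTTCgttccggcggctcctagagcgttt
Gas5: CTTTCggagctgtgcggcattctgagcagg
Snhg1: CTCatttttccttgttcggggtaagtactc
Snhg6: CTTTCTCggcagcgccgtagagcgcgagca
Snhg8: CCCTCgcgcgcaggctcttgggagagcgtc
Snhg12: CCTTTCTCgcttcatccgcggtccctgtct

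These starts are position 167063221 of chromosome 2 for Zfas1 (plus strand) and 161035166 of chromosome 1 for Gas5 (plus strand). The Snhg1 start is position 8723487 of chromosome 19 (plus strand) and the Snhg6 start is 9944118 of chromosome 1 (minus strand). Those of Snhg8 and Snhg12 are 123508404 of chromosome 3 (minus strand) and 132308676 of chromosome 4 (plus strand). A C with at least 4 further pyrimidines opened 1 of 5 annotated transcripts of Zfas1, 5 of 25 of Gas5, 1 of 5 of Snhg6, 1 of 3 of Snhg8 and 3 of 10 of Snhg12. None of the 18 annotated Snhg1 transcripts met this rule, and its longest run was 3 bases. For Gas5 another start, that of transcript Gas5-203 at position 161034929, had a longer run of 6 bases. The rule was met by 11 of the 66 member transcripts (16.7%), 52 of 490 of cytosolic ribosomal proteins (10.6%) and 2563 of all 118082 transcripts (2.17%). Per gene, at least 1 such transcript was found for 5 of 6 members (83.3%). It was found for 35 of 79 ribosomal protein genes (44.3%) and 2217 of 32570 genes in all (6.81%). Among other noncoding snoRNA hosts, 4 of 60 transcripts (6.67%) and 3 of 12 genes met the rule. Since the motif gave the group its name, the members' shares are a description and not a test. A share per gene also rises with the number of annotated transcripts per gene, which differed between these sets and was not adjusted for. Annotated starts can be off by some bases, so a missing run says only that it is not at the annotated start.

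The gene spans are chr2:167062934-167065862 for Zfas1, chr1:161034422-161038539 for Gas5, chr19:8723475-8726443 for Snhg1, chr1:9941959-9944118 for Snhg6, chr3:123507552-123508404 for Snhg8 and chr4:132308623-132311024 for Snhg12. Distances to neighbours were taken from these spans, not from the starts shown above. Zfas1 starts 81 bases from the start of Znfx1, which encodes a zinc-finger helicase on the opposite strand, and Gas5 starts 427 bases from Zbtb37. In both pairs the spans overlap. The shown starts of Zfas1 and Gas5 lie outside the overlap, past the partner ends at 167063015 (Znfx1) and 161034849 (Zbtb37). Snhg1 starts 106 bases from Slc3a2, the heavy chain of an amino acid transporter, without overlap. Snhg6 overlaps Mcmdc2 on the opposite strand, and a misc_RNA gene (Gm27494) lies in Zfas1 on its own strand. The library kit keeps strand, but whether the counting used it is not given in the sources used here, so reads in the overlaps cannot be split with certainty.

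Before the levels, 5 libraries of the second experiment have to be set apart. Libraries held between 25574203 and 47687872 counts in the first experiment and between 11625862 and 40959309 in the second. Rn7sk, a small nuclear RNA that restrains RNA polymerase II elongation, was high in all 3 untreated KO libraries and in replicates 3 and 4 of the WT anti-PD-1 group. These 5 ranged from 4794 to 11275 CPM (counts scaled to a common library total), and the other 13 from 1995 to 3919 CPM. Counts on all snoRNA genes together were also separated, at 386 to 562 CPM in the 5 and 134 to 360 CPM in the 13. Summed ribosomal protein counts overlapped, at 24080 to 38380 CPM against 17966 to 30116 CPM. In 3 of the 5 libraries, 1781 sensory receptor genes (olfactory, vomeronasal and taste), which most tissues keep silent, summed to 973 to 3903 CPM, against 13.6 to 246 CPM in the 13. Untreated KO replicates 2 and 4 were at 83.0 and 67.2 CPM, inside the range of the 13. These receptor sums were scaled to the raw library total, unlike the other CPM in this paragraph. The untreated KO group lies wholly within the 5, so genotype and this property of the libraries cannot be told apart there. All 7 melanoma markers were above 0 in all 48 libraries, and 5 of 10 leukocyte markers were. Fibroblast markers (6 of 6 above 0 in every library) summed to 370 to 865 CPM in the 5 and 737 to 7559 CPM in the 13, and their part in the values below was not tested. Nos2, the gene of iNOS, lay between 1.15 and 5.92 CPM in tumors labelled KO and between 1.40 and 7.28 CPM in WT tumors of day 7. In the first experiment, which is WT throughout, it lay between 0.695 and 40.97 CPM. Since the deleted part is not stated and the tumor cells are not labelled KO, this does not check the labels.

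All 6 transcripts passed the filter on low counts in both experiments and had counts in every library. Gas5 was the most abundant. In the first experiment its median was 115 CPM per kb of its median transcript length, ahead of Snhg1 (27.5), Zfas1 (18.7), Snhg6 (12.6), Snhg8 (12.4) and Snhg12 (6.98). The second experiment gave the same order, from 154 for Gas5 to 9.10 for Snhg12. Per kb of merged exons, a longer measure that keeps retained introns, Gas5 (19.3) and Snhg12 (2.66) again marked the ends, but Snhg8 (7.66) and Snhg6 (6.17) came before Snhg1 (5.59) and Zfas1 (4.67). Counts per library ran from 77 for Snhg12 to 3405 for Gas5 in the first experiment, and from 128 for Snhg8 to 4715 for Gas5 in the second.

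In the WT time course Zfas1, Gas5 and Snhg1 varied less within conditions than most genes of at least 5 CPM, and Snhg6, Snhg8 and Snhg12 varied more. Across 30 tumors Zfas1 lay between 9.28 and 17.6 CPM (median 13.7), Gas5 between 53.4 and 91.0 CPM (median 72.6) and Snhg1 between 13.3 and 28.3 CPM (median 16.6). The less abundant Snhg6, Snhg8 and Snhg12 lay between 3.71 and 10.2, 3.11 and 11.3, and 2.703 and 9.28 CPM. Within a condition, the SD on the log2 scale was 0.23 for Zfas1, 0.20 for Gas5 and 0.22 for Snhg1, below the median of 0.28 over the 11267 genes with a mean of at least 5 CPM. For Snhg6, Snhg8 and Snhg12 it was 0.41, 0.39 and 0.35, above that median, and 78.9%, 76.8% and 70.4% of these genes had a smaller SD.

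**Figure D1:**
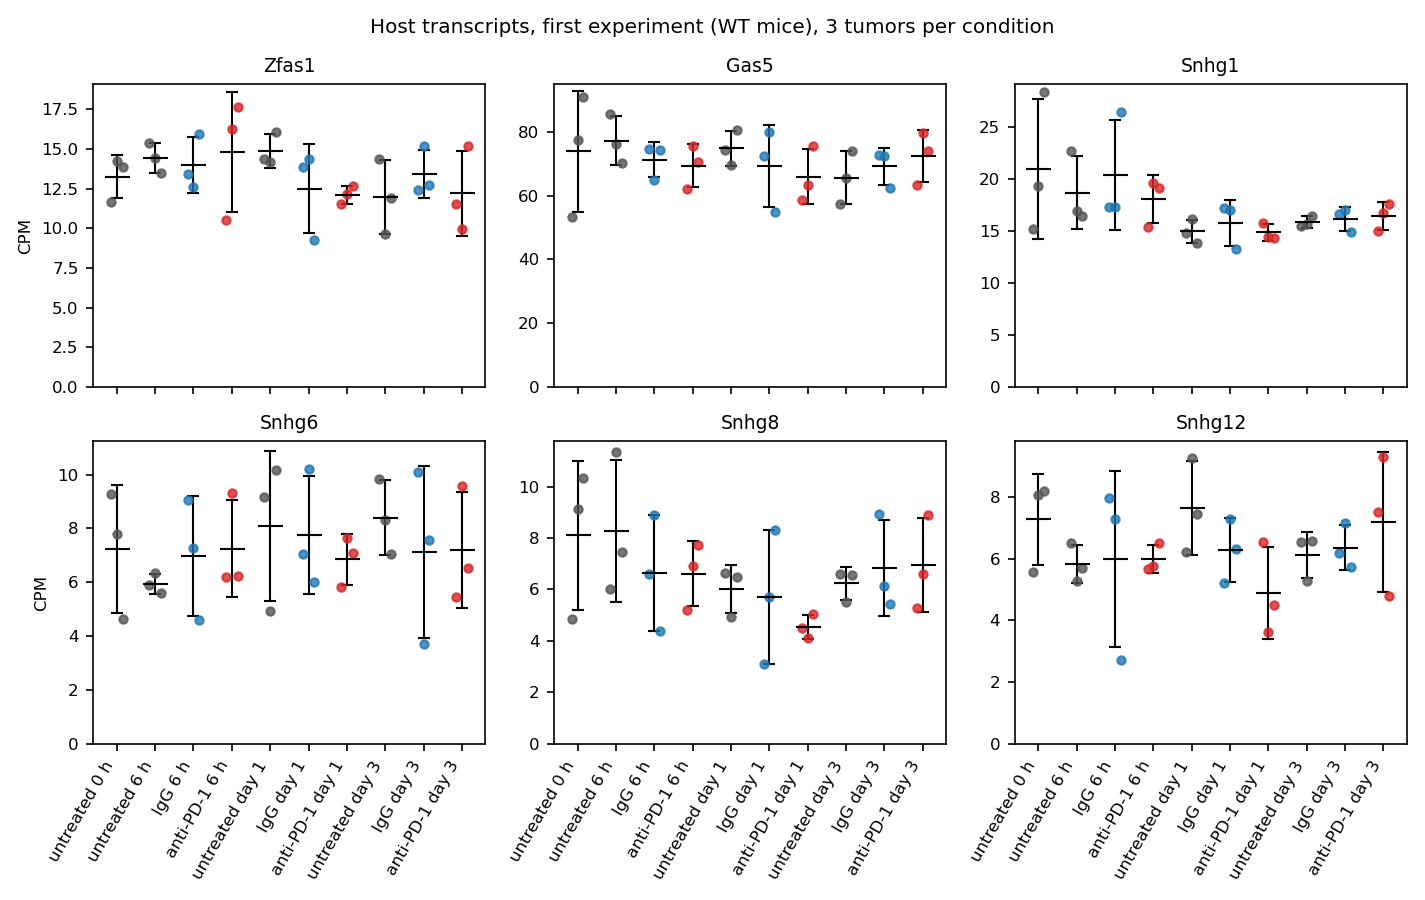
Levels of the 6 host transcripts in the first experiment, in CPM on a linear axis, with 1 point per tumor and a bar at the mean of each of the 10 conditions. Conditions next to each other in order of mean overlap in every panel, and the highest Snhg1 value is 1 untreated tumor at 0 h (28.3 CPM).

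Zfas1, a member with a smaller SD than most genes of at least 5 CPM, is given tumor by tumor. In untreated tumors it was at 11.7, 14.2 and 13.8 CPM at 0 h, 15.4, 14.4 and 13.5 CPM at 6 h, 14.3, 14.2 and 16.1 CPM at day 1 and 14.3, 9.66 and 11.9 CPM at day 3. With IgG it was at 13.4, 12.6 and 15.9 CPM at 6 h, 13.9, 14.4 and 9.28 CPM at day 1, and 12.4, 15.2 and 12.7 CPM at day 3. With anti-PD-1 it was at 10.5, 16.3 and 17.6 CPM at 6 h, 11.5, 12.1 and 12.6 CPM at day 1, and 11.5, 9.93 and 15.2 CPM at day 3. The condition means ran from 11.97 ± 2.35 CPM (SD, n = 3, untreated day 3) to 14.9 ± 1.05 CPM (untreated day 1). When the 10 conditions were ordered by mean, none of the 9 neighbouring pairs was free of overlap for any of the 6 transcripts. Conditions further apart in that order could separate. Zfas1 with anti-PD-1 at day 1 (11.5 to 12.6 CPM) lay below untreated day 1 (14.2 to 16.1 CPM), while the other members overlapped. This pair is an example out of many possible pairs. It was not tested, its share over all genes was not taken, and nothing is read from it.

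Whether antibody treatment moved the host transcripts was asked with anti-PD-1 against IgG at each time. None of the 6 changed at 6 h, day 1 or day 3 by edgeR's quasi-likelihood test with Benjamini-Hochberg adjustment over 26848 genes. Over all genes the share called was also 0% at each time. At an unadjusted p under 0.05, 0 of 6 members passed at each time, while 1175, 976 and 575 of all genes did. DESeq2 called 0 of 6 members, and 1, 3 and 18 genes in all. At 6 h the log2 fold changes of the members ran from −0.18 (Snhg1) to 0.08 (Zfas1), with a median of 0.00 against −0.07 over all genes. At day 1 they ran from −0.36 (Snhg12) to −0.05 (Zfas1), with a median of −0.13 against −0.01, and at day 3 from −0.14 (Zfas1) to 0.18 (Snhg12), with a median of 0.02 against 0.00. The 3 tumors per group overlapped for all 6 members at each time, while 7.70%, 6.49% and 8.32% of genes did not overlap at 6 h, day 1 and day 3.

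The intervals show which differences remain compatible with 3 tumors per condition. For Gas5, the most precise of the 6, the 95% interval of the log2 difference at 6 h was −0.39 to 0.31, and for Zfas1 it was −0.36 to 0.52. For Snhg6 the interval was −0.67 to 0.78, so changes of Snhg6 within these bounds are compatible with the data. These bounds are not a limit of detection.

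IgG against untreated tumors, and anti-PD-1 against the same untreated tumors at 6 h, gave the same count. Again 0 of 6 members were called by edgeR or DESeq2 in each of these 4 comparisons, 0 had an unadjusted p under 0.05, and all 6 overlapped. For IgG the edgeR share over all genes was 0% each time, and 8.19%, 12.6% and 11.2% of genes did not overlap at 6 h, day 1 and day 3. DESeq2 called 8, 25 and 13 genes, and 1456, 1457 and 709 had an unadjusted p under 0.05. For anti-PD-1 the corresponding values were 0%, 5.61%, 6 genes and 886 genes. Member log2 fold changes for IgG lay between −0.32 (Snhg8) and 0.23 (Snhg6) at 6 h, −0.28 (Snhg12) and 0.08 (Snhg1) at day 1, and −0.24 (Snhg6) and 0.17 (Zfas1) at day 3. For anti-PD-1 against untreated they lay between −0.32 (Snhg8) and 0.29 (Snhg6).

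Time without treatment was followed against the 0 h tumors, which all 3 comparisons share. No member passed the adjusted threshold, and the edgeR share over all genes was 0% at 6 h, day 1 and day 3, with 1859, 1839 and 1850 genes at an unadjusted p under 0.05 and 213, 240 and 212 called by DESeq2. DESeq2 called 0 of 6 members. All members overlapped, against 5.45%, 8.06% and 7.72% of genes that did not. Snhg1, the host of Snord22 and 7 further annotated snoRNA genes, was the 1 member with an unadjusted p under 0.05. Its tumors were at 15.2, 19.3 and 28.3 CPM at 0 h, 14.9, 16.2 and 13.9 CPM at day 1, and 15.5, 15.7 and 16.5 CPM at day 3. The log2 difference at day 1 was −0.48 (95% interval −0.90 to −0.07), with an unadjusted p of 0.025 and an adjusted p of 0.675. At day 3 it was −0.40, with an adjusted p of 0.699. The 0 h group overlapped both later groups, and without its replicate 3, the highest tumor, the day 1 difference was −0.16.

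**Figure D2:**
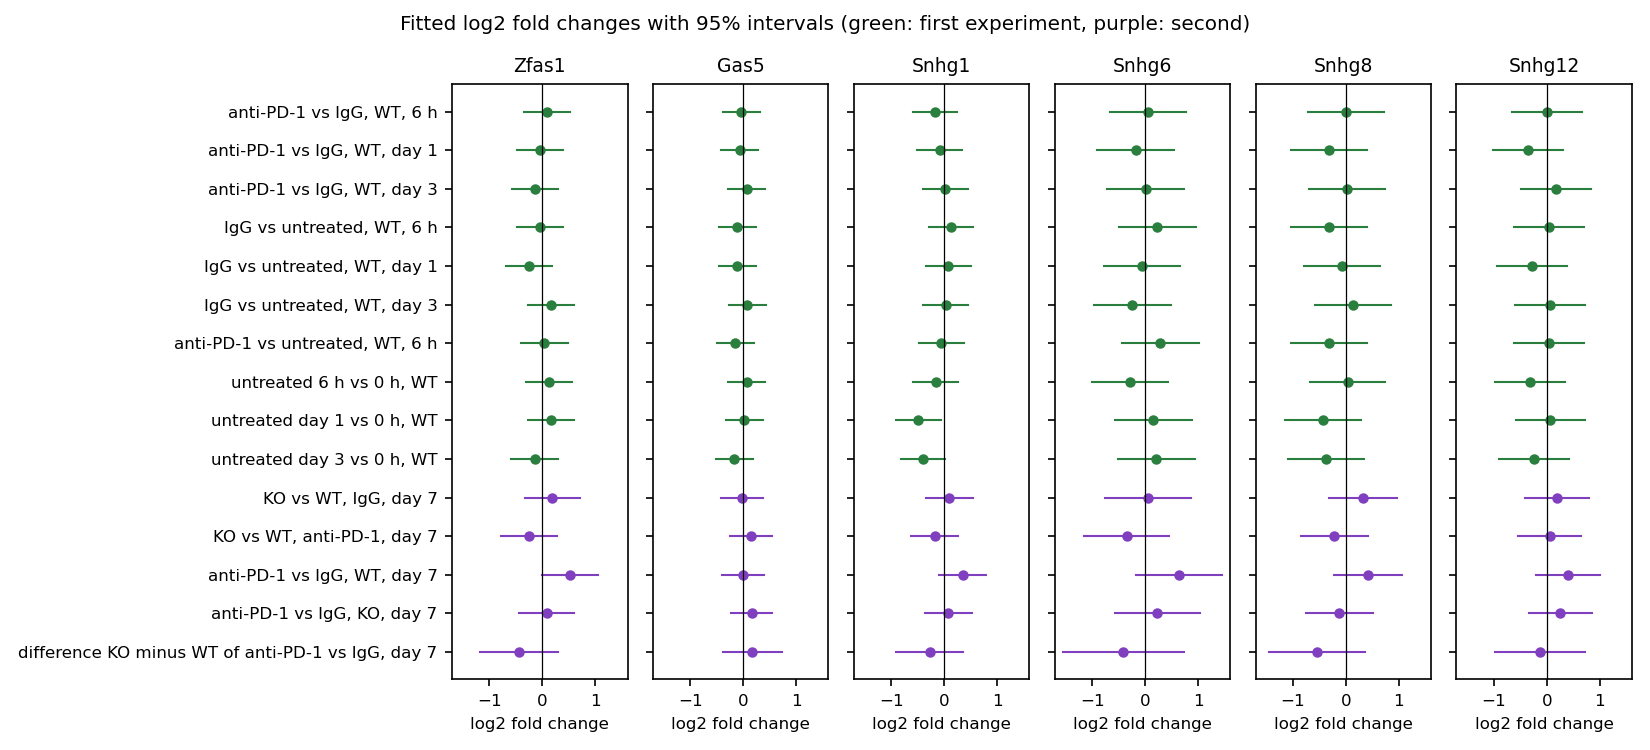
Fitted log2 fold changes of the 6 host transcripts (points) with 95% intervals (lines) in the 15 tested comparisons, green for the first experiment and purple for the second. The day 1 against 0 h value of Snhg1 (−0.48) is the only one whose interval does not reach 0, and no adjusted p passed 0.05.

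At day 7 the genotypes were compared within each antibody. Under IgG, Zfas1 was at 17.9, 13.2 and 18.3 CPM in KO and 14.4, 12.6 and 16.5 CPM in WT tumors, a log2 difference of 0.19 (SE 0.25, 95% interval −0.34 to 0.71, adjusted p = 0.873). The groups overlapped, as they did for the other 5 members. Member differences ran from −0.03 (Gas5) to 0.32 (Snhg8), with a median of 0.14 against −0.14 over all genes. The smallest adjusted p among them was 0.766. In edgeR 0 of 6 members and 0% of 30837 genes were called, with 0 of 6 members and 1931 genes at an unadjusted p under 0.05, and DESeq2 called 0 members and 41 genes. Of all genes, 12.1% did not overlap.

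Under anti-PD-1, Zfas1 was at 14.2, 19.8 and 18.3 CPM in KO tumors and 15.3, 22.2 and 24.9 CPM in WT tumors. Its 2 highest WT values belong to the libraries with high Rn7sk and receptor counts. The log2 difference was −0.25 (95% interval −0.78 to 0.27, adjusted p = 0.460) and became 0.22 without these 2 libraries, which leaves 1 library in that arm. Snhg6, the host of Snord87, was at 6.68, 9.61 and 12.8 CPM in KO and 6.20, 16.4 and 14.7 CPM in WT tumors, a difference of −0.35 (adjusted p = 0.516) that became 0.69 without them. Snhg8 was the 1 of 6 members whose groups did not overlap, at 7.02, 8.34 and 8.32 CPM in KO and 8.84, 8.39 and 10.3 CPM in WT tumors, where 22.3% of all genes did not overlap. Its log2 difference was −0.22 (adjusted p = 0.609). The members' median was −0.20, against −0.91 over all genes. Of the members 0 of 6 were called or had an unadjusted p under 0.05, and of all genes 0% were called by edgeR, 9959 had an unadjusted p under 0.05 and 3043 were called by DESeq2, which called 0 members.

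Anti-PD-1 against IgG at day 7 in WT tumors gave the largest tested difference of a member (Snhg6), and its values rest on the same 2 libraries. Zfas1 was at 15.3, 22.2 and 24.9 CPM with anti-PD-1 against 14.4, 12.6 and 16.5 CPM with IgG, a log2 difference of 0.52 (SE 0.25, 95% interval −0.01 to 1.04, adjusted p = 0.306), which was 0.08 without them. Snhg6 was at 6.20, 16.4 and 14.7 CPM against 6.79, 9.11 and 7.88 CPM, a difference of 0.64 (95% interval −0.17 to 1.46, adjusted p = 0.355) that turned to −0.36 without them. In both transcripts the tumor of replicate 2, which has no excess of Rn7sk, lies within or below the IgG range. Snhg8 did not overlap, at 8.84, 8.39 and 10.3 CPM against 6.15, 6.96 and 7.54 CPM, and its difference of 0.42 (adjusted p = 0.425) was 0.36 without them. It was again the 1 of 6 without overlap, against 11.9% of genes. Gas5 was at 103, 84.1 and 96.5 CPM against 85.6, 111 and 89.3 CPM, a difference of −0.01 (adjusted p = 0.969). The members' median was 0.40, against 0.68 over all genes. The edgeR test called 0 of 6 members and 0% of genes, with 0 of 6 members and 5034 genes at an unadjusted p under 0.05. DESeq2 called 0 members and 324 genes.

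In KO tumors the same treatment contrast gave member differences between −0.13 (Snhg8) and 0.26 (Snhg12), with all groups overlapping, against 7.09% of genes that did not. Zfas1 differed by 0.08 (95% interval −0.44 to 0.60, adjusted p = 1). Whether the treatment difference itself depended on genotype was tested as an interaction, in which Zfas1 differed by −0.44 (95% interval −1.18 to 0.30, adjusted p = 0.774). This value was −0.01 without the 2 WT libraries. Member values ran from −0.54 (Snhg8) to 0.17 (Gas5). By edgeR 0 of 6 members and 0% of genes were called in each of these 2 comparisons. At an unadjusted p under 0.05 there were 0 of 6 members in both, and 599 genes for KO tumors and 2287 for the interaction. DESeq2 called 20 and 19 genes and no member.

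**Figure D3:**
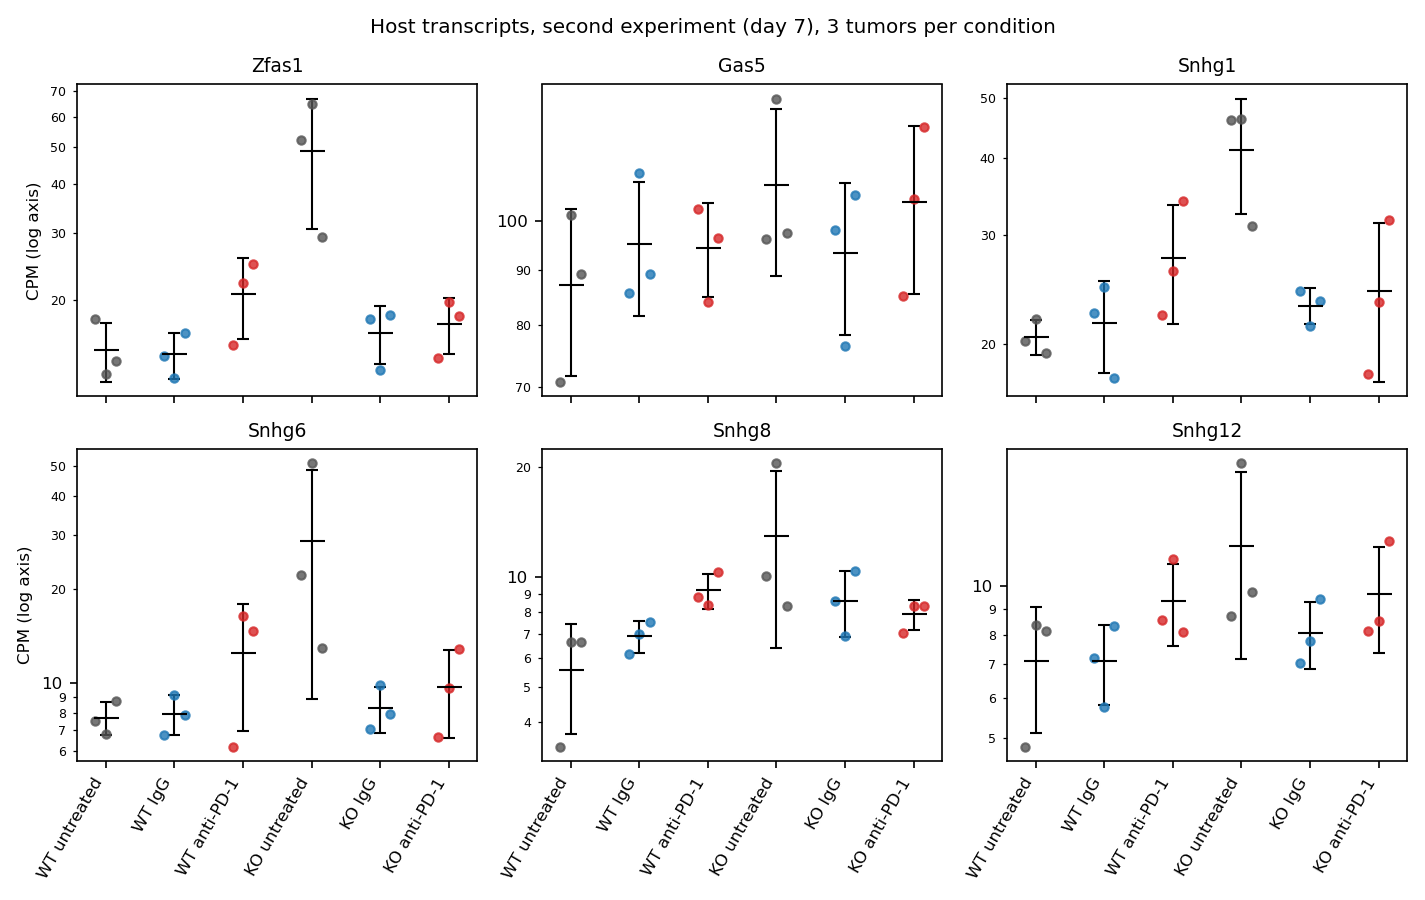
Levels of the 6 host transcripts in the second experiment, in CPM on a log axis, with 1 point per tumor and a bar at the mean of each of the 6 conditions. The untreated KO tumors hold the highest Zfas1 values (29.2 to 64.7 CPM), and Gas5 overlaps between all conditions.

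The untreated tumors of day 7 are where Zfas1 was picked, and their values are given without a test. Zfas1 was at 52.3, 64.7 and 29.2 CPM in KO tumors and 17.8, 12.9 and 13.9 CPM in WT tumors, or 48.8 ± 18.04 against 14.9 ± 2.62 CPM (SD, n = 3), a 3.27-fold difference (log2 1.71). Snhg6 was at 22.3, 51.2 and 12.9 CPM in KO against 7.53, 6.84 and 8.70 CPM in WT tumors, 3.74-fold higher. Snhg1 was at 46.2, 46.3 and 31.1 CPM against 20.2, 21.9 and 19.3 CPM, 2.01-fold higher. In these 3 transcripts each KO tumor lay above each WT tumor.

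Snhg8, the host of Snora24, was at 10.1, 20.5 and 8.33 CPM in KO against 3.42, 6.64 and 6.65 CPM in WT tumors, 2.33-fold higher. Snhg12, whose span holds Snora16a, Snora44, Snora61 and Snord99, was at 8.70, 17.5 and 9.72 CPM against 4.79, 8.35 and 8.12 CPM, 1.69-fold higher. The gaps in these 2 were narrow, with the lowest KO tumor of Snhg12 at 8.70 CPM and the highest WT tumor at 8.35 CPM. Gas5 was at 96.2, 129.9 and 97.5 CPM against 70.8, 101 and 89.3 CPM, 1.24-fold higher, and was the 1 member with overlap. Groups thus did not overlap for 5 of 6 members, where 17.7% of genes did not overlap in either direction and 9.73% were higher in KO without overlap. By the adjusted threshold 0.587% of genes were called in this contrast, from which nothing is read here.

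KO replicate 2 carried the highest value of all 6 transcripts. Without it the log2 differences were 1.47 for Zfas1, 1.21 for Snhg6, 0.93 for Snhg1, 0.74 for Snhg8, 0.40 for Snhg12 and 0.17 for Gas5, against 1.71, 1.90, 1.01, 1.22, 0.76 and 0.31 with it. Without WT replicate 1 the Gas5 value was 0.18. With log2 Rn7sk CPM as a covariate they were 1.38 for Zfas1, 1.296 for Snhg6, 0.50 for Snhg1, 1.34 for Snhg8, 0.72 for Snhg12 and 0.37 for Gas5. No value without the libraries that stand apart can be given for this contrast, because all 3 KO tumors are among them. Some marker sums separated the same groups, where 17.7% of single genes did not overlap either. Proliferation markers (6 of 6 above 0 in every library) summed to 1459 to 1843 CPM in untreated KO and 2228 to 2520 CPM in untreated WT tumors, endothelial markers (5 of 5) to 156 to 195 against 203 to 234 CPM, and fibroblast markers (6 of 6) to 637 to 865 against 876 to 3974 CPM, each lower in KO without overlap. Melanoma and leukocyte marker sums overlapped, at 14064 to 18687 against 15741 to 17558 CPM and 60.4 to 96.8 against 72.8 to 166 CPM. So did those of skeletal muscle (7.86 to 282 against 5.67 to 402 CPM), keratinocytes (0.610 to 30.2 against 0.0867 to 16.2 CPM) and adipocytes (9.29 to 49.9 against 0.896 to 9.61 CPM). The part of these markers in the host values was not tested. In bulk tumor RNA, fewer cells of a type and less RNA per cell cannot be told apart either.

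Over the 6 conditions of day 7 the untreated KO group had the highest mean for every member. KO tumors given an antibody lay lower for Zfas1, at 13.2 to 18.3 CPM with IgG and 14.2 to 19.8 CPM with anti-PD-1. For Zfas1 the untreated KO group stood clear of the next condition, WT anti-PD-1 (20.8 ± 4.94 CPM), and this was the 1 of 5 neighbouring pairs without overlap. Over all genes, 11.9% had at least 1 such pair and 1.61% had the untreated KO group on top and clear of the next. Since this group was used to pick Zfas1, nothing is read from these shares. For the other 5 members no neighbouring pair was free of overlap. The 5 set-apart libraries held Zfas1 at 22.2 to 64.7 CPM and the other 13 at 12.6 to 19.8 CPM, and Snhg6 at 12.9 to 51.2 against 6.20 to 12.8 CPM, so that 2 of 6 members did not overlap, where 2.19% of genes did not. The 5 include the 3 tumors used to pick Zfas1, and this too is a description. Snhg1 (26.2 to 46.3 against 17.6 to 31.8 CPM), Gas5 (84.1 to 129.9 against 70.8 to 122 CPM), Snhg8 (8.33 to 20.5 against 3.42 to 10.4 CPM) and Snhg12 (8.08 to 17.5 against 4.79 to 12.3 CPM) overlapped.

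**Figure D4:**
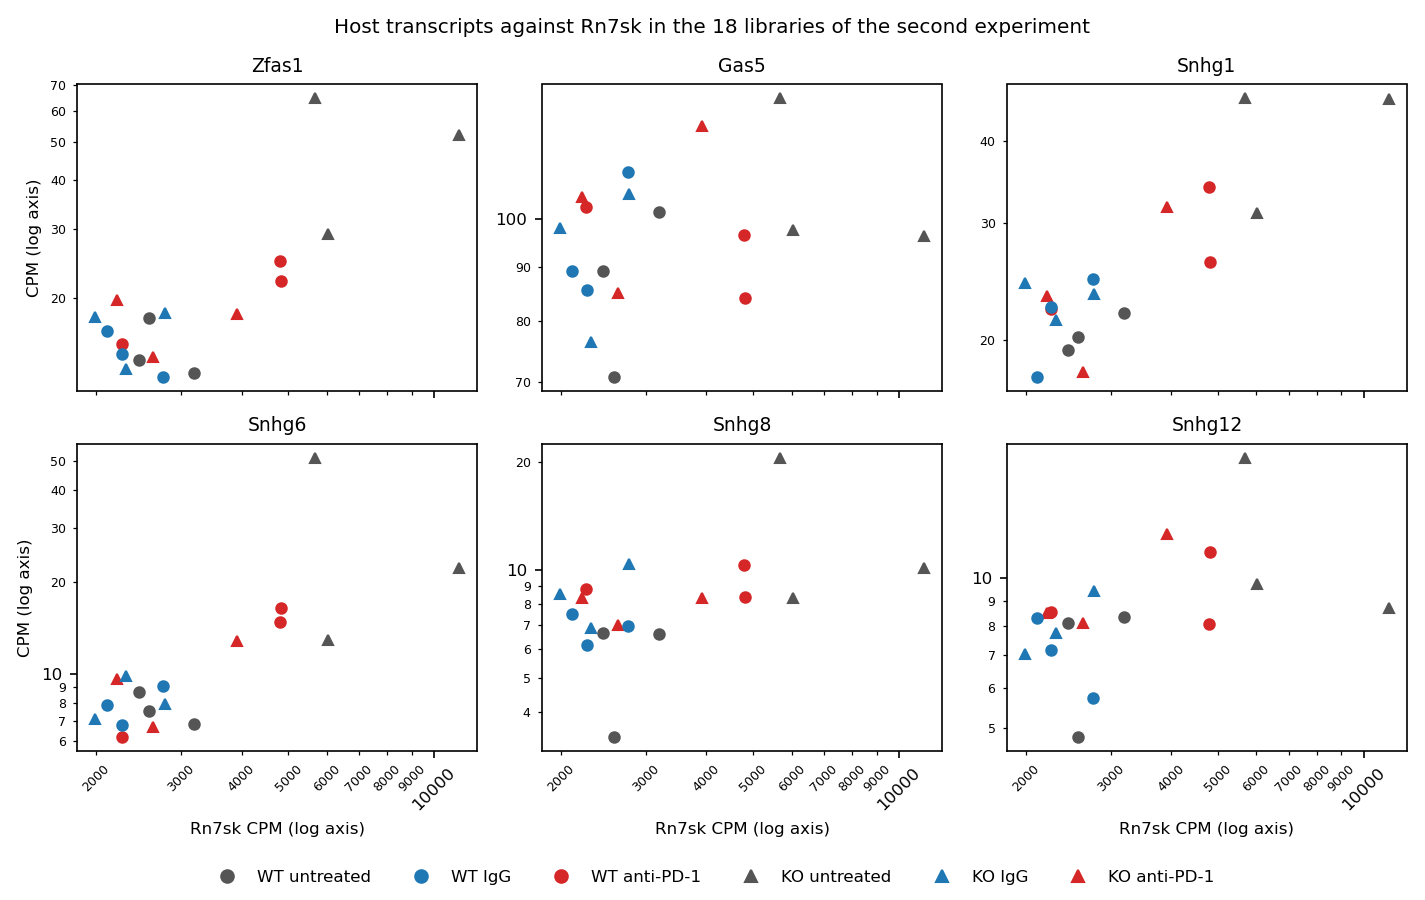
CPM of each host transcript against CPM of Rn7sk in the 18 libraries of the second experiment, both on log axes, with 1 point per library. Colour shows treatment and shape shows genotype (circles WT, triangles KO). The 5 libraries with Rn7sk between 4794 and 11275 CPM are the 3 untreated KO tumors and WT anti-PD-1 replicates 3 and 4, and hold the 5 highest Zfas1 values.

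The 6 transcripts did not vary as 1 unit in the first experiment. Over its 30 libraries the 15 pairwise correlations of log2 CPM ran from −0.38 to 0.59 (median 0.14). Over the 18 libraries of the second they ran from 0.39 to 0.90 (median 0.70), and over the 13 libraries without the 5 from 0.14 to 0.72 (median 0.35). Rn7sk correlated with Zfas1 at 0.20 in the first experiment, 0.81 in the second and −0.07 in the 13. For Snhg1 these values were 0.31, 0.86 and 0.53, for Snhg6 0.06, 0.78 and 0.47, and for Snhg12 0.02, 0.48 and 0.40. Snhg8 was at −0.01, 0.48 and −0.01, and Gas5 at 0.40, 0.28 and 0.46, higher without the 5 libraries than with them. With the mean of the ribosomal protein genes, Zfas1 correlated at −0.16, 0.80 and 0.05, and Snhg12 at 0.19, 0.72 and 0.83. These are descriptions across libraries that share depth and composition effects, and conditions are not separated in them.

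The genes most like each member were ranked by the mean of the correlations in both experiments over 25456 genes. For Zfas1 the first was Snhg1 (0.48 over 30 and 0.88 over 18 libraries), followed by Ube2t, a ubiquitin-conjugating enzyme of DNA repair (0.60 and 0.72), and the noncoding Gt(ROSA)26Sor (0.42 and 0.85). For Snhg6 they were Ndufa7, a subunit of respiratory complex I (0.58 and 0.88), Chchd6 and the ribosomal protein gene Rps15a (0.47 and 0.93). For Snhg12 they were Polr2k, a small subunit shared by RNA polymerases (0.62 and 0.79), Gm24339 and the ribosomal protein gene Rpl37. The list for Snhg8 held Rpl32l, Tbca and Rpl39, that for Gas5 Gm8034, Pet100 and Gm23119, and that for Snhg1 AI463229 (0.71 and 0.78), Zfas1 and Odaph.

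The divergent partners differed little between the untreated groups. Znfx1 was at 116 ± 14.9 CPM in untreated KO and 122 ± 5.77 CPM in WT tumors (log2 −0.07), Zbtb37 at 59.1 ± 8.86 against 69.0 ± 14.5 CPM (−0.22) and Slc3a2 at 142 ± 25.7 against 152 ± 19.7 CPM (−0.10). None of the 3 was called in any of the 15 tested comparisons. For Slc3a2 the differences of KO from WT tumors were 0.42 under IgG (adjusted p = 0.626) and 0.51 under anti-PD-1 (adjusted p = 0.130).

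The snoRNAs themselves were almost invisible in these counts. The spans of the 6 hosts hold 28 annotated snoRNA genes, 10 in Gas5, 8 in Snhg1, 5 in Snhg12, 3 in Zfas1 and 1 each in Snhg6 and Snhg8. Of these, 27 had 0 counts in all 48 libraries, where the 6 hosts had 233629. The exception was Snord87 in Snhg6, with 114 counts over all libraries, 0.765% of the 14896 of its host. It was also the only one of the 28 that overlaps no annotated exon of its host. Over the whole table, 0 of 134 snoRNA genes inside an exon of another gene of their strand had any count, against 1109 of 1337 (82.9%) that overlap no such exon and 28 of 36 (77.8%) with partial overlap. The 27 overlap an annotated exon of their host, and whether each lies wholly inside 1 exon was not determined. Their 0 counts are not read as levels of these snoRNAs.

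Further genes of the pathway were described by list, and none of their members was called by edgeR in any of the 15 tested comparisons. The lists hold 12 other noncoding snoRNA hosts found in the table, 79 cytosolic ribosomal proteins, 18 translation factors with TOP mRNAs, 15 TOP and mTOR regulators, 16 nonsense-mediated decay factors and 16 snoRNP proteins. In the first experiment, between 0 and 17 of the 79 ribosomal protein genes had an unadjusted p under 0.05, depending on the comparison, with list medians between −0.39 and 0.30, and DESeq2 called 0 genes of the 6 lists. For each of the other 5 lists it was between 0 and 2 genes, and over all 26848 genes between 575 and 1859. In the second experiment between 1 and 29 ribosomal protein genes did, between 0 and 6 of each other list, and between 599 and 9959 of all genes. The ends of these ranges need not come from the same comparison, so they are not shares to set against each other. The 29 were in WT tumors with anti-PD-1 against IgG, where DESeq2 called 19 and the median was 0.42. Over all 30837 genes the corresponding values were 5034, 324 and 0.68. This contrast holds the 2 set-apart WT libraries, and the lists were not refitted without them.

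In that comparison the other lists divided. The median log2 difference was 0.40 for the other hosts (9 of 12 above 0), −0.06 for translation factors (7 of 18), −0.27 for TOP and mTOR regulators (2 of 15), −0.34 for decay factors (1 of 16) and 0.00 for snoRNP proteins (8 of 16). Larp1, the repressor of TOP mRNAs, differed by −0.60 (adjusted p = 0.305), Snhg15 by 0.93 (adjusted p = 0.305), and Smg1, the kinase that starts decay, by −0.54 (adjusted p = 0.305). Between genotypes under anti-PD-1 the medians were −0.17 for the other hosts, 0.00 for ribosomal proteins, 0.27 for translation factors, 0.31 for regulators, 0.37 for decay factors and 0.21 for snoRNP proteins, against −0.91 over all genes. DESeq2 called 1, 1, 3, 0, 0 and 2 of their genes, and 3043 genes in all. The same 2 WT libraries stand in this arm. Under IgG these medians were −0.07, 0.24, 0.19, 0.01, 0.04 and 0.16, against −0.14 over all genes, and DESeq2 called 0 of the listed genes and 41 in all.

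In the untreated tumors of day 7, given again as a description, the median log2 difference of KO from WT was 1.11 for the 6 members (6 of 6 above 0), 0.79 for the other hosts (11 of 12) and 0.83 for the ribosomal proteins (73 of 79), against 0.49 over all genes. It was 0.01 for translation factors (9 of 18), −0.19 for TOP and mTOR regulators (5 of 15), −0.35 for decay factors (2 of 16) and −0.06 for snoRNP proteins (8 of 16). The genes named next were picked by small p in this same contrast or by abundance, so nothing is read from their size. Of the ribosomal protein genes, Rpl34 differed by 1.68, Rps15a by 1.61 and Rps20 by 1.504, picked by p. The abundant Rpl21 (−0.01), Rpl28 (−0.04) and Rpl4 (−0.27) are among the few genes of that list that did not lie above 0. Among translation factors Eef1b2 differed by 1.05 and Eif3e by 0.77, picked by p. Eef1a1 (−0.05), Pabpc1 (−0.54) and Eef2 (−0.25), named for their abundance, lay below 0. Nop10 (1.02) and Znhit3 (1.19) were picked by p among snoRNP proteins, where 8 of 16 lay above 0. Larp1 differed by −0.54. The part of the TOP motif or of Larp1 in these values was not tested.

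**Figure D5:**
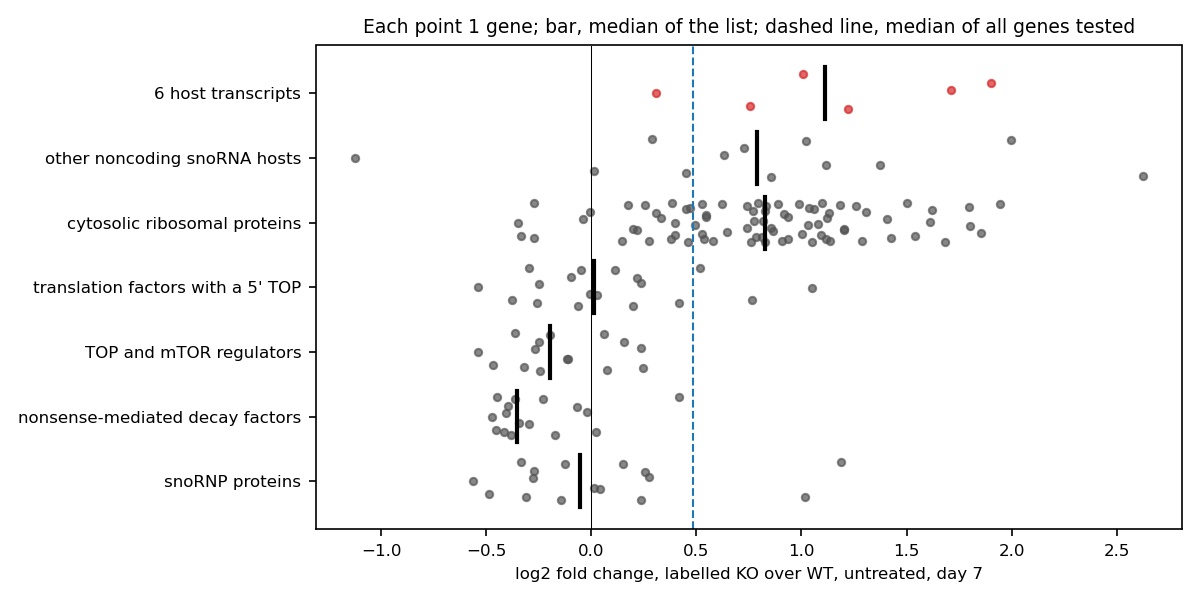
Log2 fold changes of untreated KO over WT tumors at day 7 for the 6 host transcripts and 6 gene lists, with 1 point per gene, a bar at the median of each list and a dashed line at the median of all genes tested (0.49). The hosts (1.11) and ribosomal proteins (0.83) lie to the right of the line, and the decay factors (−0.35) to its left.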

How the data were processed

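RNA-seq was analysed from 48 mouse tumors. The authors made strand-specific libraries (NuGEN kit, 100 ng of RNA), sequenced paired ends on a NovaSeq, found adapters with BBMerge, removed them with cutadapt 1.8.1, aligned to mm10 with STAR 2.7.7a and estimated reads per gene with RSEM 1.3.0 on GENCODE vM21. The deposited values are whole-number counts per gene and library, not normalized. The name of the table points to another counting program, and the values do not show which was used. All 55450 identifiers matched vM21, and 0 columns were left unmapped. Day 7 of the second experiment comes from the paper, and its titles give no time. The titles' day 0 of the first experiment was taken as 6 h, since 0 h has its own title.

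Each experiment was normalized and fitted on its own, so levels are not compared between them. edgeR 4.0.16 (R 4.3.3) was run with TMM scaling, filterByExpr with a minimum count of 10, 1 coefficient per condition and the two-sided quasi-likelihood F-test, adjusted by Benjamini-Hochberg over all genes tested with a threshold of 0.05. This left 26848 and 30837 genes with 20 and 12 residual degrees of freedom. CPM are counts scaled to a common library total with TMM factors, log2 levels use CPM + 0.5, and SDs within conditions were pooled. The receptor sums and the receptor and Rn7sk covariates used the raw library total instead. Intervals are 95%. P-values measure the spread between tumors of single animals.

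Alternatives were DESeq2 1.42.0, its size factors in edgeR, no filter, a replicate block, only the compared groups, each library left out, and the receptor covariate. The Rn7sk covariate and the fit without WT anti-PD-1 replicates 3 and 4 together were added after the data were seen. The fit was tested on simulated data. No libraries of a condition were copies of each other (chi-square per gene 16.2 to 411). The members, lists and comparisons were chosen with earlier results of these data known. The text names the members, divergent partners within 1000 bases, embedded snoRNAs, the 3 genes most like each member, and up to 3 genes per list, by smallest p past the threshold or otherwise by abundance. Smg1, Larp1 and Snhg15 come from this rule, and not every gene it covers is printed. For the untreated tumors of day 7, ribosomal protein and translation factor genes were named both by p and by abundance. Python 3.11.15, pandas 2.3.3, numpy 2.4.6 and matplotlib 3.10.9 made tables and figures.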

Additional observations from a re-analysis of the deposited data

How the results depend on the processing

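In the 15 tested comparisons the count of members called stayed at 0 of 6 under every alternative run. With all libraries kept or under the added settings, 51 of 588 member values changed sign and the smallest adjusted p was 0.283. With 1 library left out, 83 of 576 did and the smallest was 0.0655. For Zfas1, KO against WT under anti-PD-1 reversed to 0.27 with the receptor covariate and 0.22 without both doubted WT anti-PD-1 libraries. For Snhg6 it reversed to 0.28 and 0.69, and anti-PD-1 against IgG in WT tumors to −0.36 without both. Zfas1 in KO tumors, anti-PD-1 against IgG, ran from −0.058 to 0.21 with 1 library left out, reversing without IgG replicate 2 (−0.058) or anti-PD-1 replicate 2 (−0.02). The untreated KO against WT description of Snhg1 moved to 0.50 with the Rn7sk covariate. The causes were not tested.

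Over all genes, the count called moved by more than the members did. For KO against WT under anti-PD-1 it was 0 with all libraries and 5025 without WT anti-PD-1 replicate 2, for anti-PD-1 against IgG in WT tumors 0 and 2042 without the same library, and for untreated tumors at 6 h against 0 h 0 and 445 with no filter. Untreated KO against WT had 181, with a range of 0 to 1349. DESeq2's size factors moved the all-gene median from −0.91 to −1.02 for KO against WT under anti-PD-1. Replicate numbers are not stated to pair the tumors. Same-numbered deviations correlated at a median of −0.03 over 65 pairs (12 over 0.1) in the first experiment and −0.02 over 36 (7 over 0.1) in the second. For other pairs the medians were 0.01 and 0.002. These values cannot show whether tumors were paired. With the replicate block 0 of 6 members were called in all 15 comparisons, and Zfas1 differed by 0.64 for anti-PD-1 against IgG in WT tumors. With 3 tumors per condition, differences inside the printed intervals remain compatible with the data, and the intervals were widest for Snhg6, Snhg8 and Snhg12.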
